A study of Mus musculus with 6 samples.

Results

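The 35 genes described here encode the enzymes that build cholesterol and fatty acids from acetyl-CoA, the proteins that sense and carry sterols, and 3 enzymes that make or remodel phosphatidylcholine. They were taken by name from the 31130 genes counted in each tumor, and all 35 were found on 1 row each. By role, 16 are sterol enzymes, 5 belong to sterol sensing and transport, 11 to fatty acid synthesis and 3 to phospholipid synthesis. Tumors grown from Lewis lung carcinoma, a mouse lung cancer line, were compared between 3 samples of lung cancer alone (LC) and 3 of lung cancer on top of interstitial pneumonia (IP+LC). All mice were female C57BL/6 animals of wild-type genotype, aged 6 to 8 weeks, and received the cells into the left lung at day 14. The IP+LC mice had additionally received bleomycin, whose damage to lung tissue ends in fibrosis, at 2.0 mg/kg through the oropharynx 2 weeks earlier. What the LC mice were given in place of bleomycin is not stated in the sources used here. Tumor tissue was taken on day 21, and each tumor gave 1 library. The hosts had an intact immune system, and the samples were pieces of tissue rather than sorted cancer cells.

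Cholesterol synthesis starts when acetyl-CoA units are joined into HMG-CoA, which is reduced to mevalonate, turned into isoprenoids and squalene, closed into a ring and trimmed to cholesterol. Fatty acid synthesis draws on the same acetyl-CoA, which is carboxylated, built into palmitate by fatty acid synthase, and then elongated or desaturated. Both arms are switched on by the sterol regulatory element-binding proteins (SREBPs, encoded by Srebf1 and Srebf2), which stay in the endoplasmic reticulum with Scap and Insig1 while sterols are plentiful. In the lung, type 2 alveolar cells use the fatty acid arm to make surfactant phospholipid, adipocytes use it to store fat, and dividing cells need both arms for new membrane.

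Promoters of 4 members are shown so that both arms can be read side by side. Hmgcs1 and Hsd17b7 stand for the sterol arm and Acss2 and Fasn for the fatty acid arm. Each run gives the 250 bases before the RefSeq transcription start on GRCm38.p6, 5′ to 3′ on the strand of the gene. Capitals mark the CCAAT box, on either strand, and the sterol regulatory element TCACNCCAC, on either strand. The Hmgcs1 promoter lies at chr13:119690101-119690350 on the plus strand, that of Hsd17b7 at chr1:169969206-169969455 on the minus strand, that of Acss2 at chr2:155517793-155518042 on the plus strand and that of Fasn at chr11:120824548-120824797 on the minus strand.
Hmgcs1: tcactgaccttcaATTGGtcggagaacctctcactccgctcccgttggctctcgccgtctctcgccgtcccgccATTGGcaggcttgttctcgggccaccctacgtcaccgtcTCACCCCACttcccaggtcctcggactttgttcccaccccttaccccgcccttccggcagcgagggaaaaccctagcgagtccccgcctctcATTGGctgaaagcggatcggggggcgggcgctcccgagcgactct
Hsd17b7: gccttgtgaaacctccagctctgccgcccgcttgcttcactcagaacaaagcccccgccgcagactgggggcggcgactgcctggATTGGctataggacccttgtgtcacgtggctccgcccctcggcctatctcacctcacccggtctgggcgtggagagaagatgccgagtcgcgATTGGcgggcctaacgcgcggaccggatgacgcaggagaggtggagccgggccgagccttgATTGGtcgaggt
Acss2: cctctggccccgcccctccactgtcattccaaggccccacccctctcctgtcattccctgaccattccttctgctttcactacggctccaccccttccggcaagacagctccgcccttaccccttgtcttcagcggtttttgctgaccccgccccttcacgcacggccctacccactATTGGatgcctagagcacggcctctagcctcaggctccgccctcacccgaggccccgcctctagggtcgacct
Fasn: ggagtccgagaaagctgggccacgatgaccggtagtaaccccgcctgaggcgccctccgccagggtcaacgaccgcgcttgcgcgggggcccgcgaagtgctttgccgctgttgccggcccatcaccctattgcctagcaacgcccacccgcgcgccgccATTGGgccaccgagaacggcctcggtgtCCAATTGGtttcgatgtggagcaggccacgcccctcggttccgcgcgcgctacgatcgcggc

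Of the 35 members, 28 had an entry among the RefSeq promoters, with 37 start sites, and each window searched held 250 bases before and 50 after the start. The sterol regulatory element was found in 3 of the 37 windows, from the genes Hmgcs1 and Pcyt1a, and in 1.24% of all 32851 windows. The 2 Pcyt1a windows with the element overlap and hold the same site, so the 3 windows hold 2 sites. Neighboring starts of Dhcr7 and Scap also have overlapping windows, and the counts of windows below include them. In Hmgcs1 it begins 137 bases before the start and reads TCACCCCAC. The CCAAT box, the letters bound by the factor NF-Y, was found in 22 of the 37 member windows (59.5%) and in 37.4% of all windows. The GC box GGGCGG was found in 28 of the 37 (75.7%) and in 35.7% of all windows. By arm, a CCAAT box was held by 12 of 13 sterol enzymes and 5 of 8 fatty acid genes. The CCAAT letters on the plus strand overlap those on the minus strand by 2 bases at 1 place in the Fasn promoter. These matches describe letters in a window and not binding.

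The 6 libraries held 592733 to 1631066 unique molecular identifiers (UMIs), each of which counts 1 captured mRNA 3′ end, whatever the length of the transcript. LC replicate 1 was the smallest, and the sum of its proliferation markers was higher than in the other LC tumors, as given below. Levels are given as counts per 1e+06 UMIs (CPM) after TMM scaling, a scaling that sets the bulk of genes equal between libraries. A change was called where edgeR's quasi-likelihood test gave an adjusted p-value below 0.1, which happened for 36.4% of the 11240 genes tested, for 16.8% as higher and for 19.6% as lower in the IP+LC group. In 43.1% of all tested genes the 3 tumors of one group did not overlap with the 3 of the other. The files do not say whether the tumors were processed together, and p-values measure the spread between these 3 tumors per group. Idi1, with 0 to 5 UMIs per tumor, and Fads2, with 1 to 8, were too low to be tested, which left 33 members.

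Most fatty acid genes were lower in the IP+LC tumors, while most sterol enzymes did not pass the limit. Of the 10 tested fatty acid genes, 7 fell and 1 rose (8 of 10 called, beside 36.4% of all genes), with a median log2 fold change of -0.74. Of the 15 tested sterol enzymes, 1 fell and 1 rose, with a median log2 fold change of 0.23, and over all tested genes the median was 0.02. None of the 5 sensing and transport genes was called by edgeR, DESeq2 or limma voom, and 0 had an unadjusted p below 0.05 in edgeR, and 2 of the 3 phospholipid genes fell. Over all 33 tested members, 2 were higher and 10 were lower, and these 12 are the same share, 36.4%, as was called among all genes. Without IP+LC replicate 2, 4 of the 10 fatty acid genes were called. The share of all genes called also changes when a tumor is left out, so 36.4% is not the background for that count. The difference between the arms was not tested. In a piece of tissue, fewer cells of a type and less RNA per cell cannot be told apart.

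**Figure D1:**
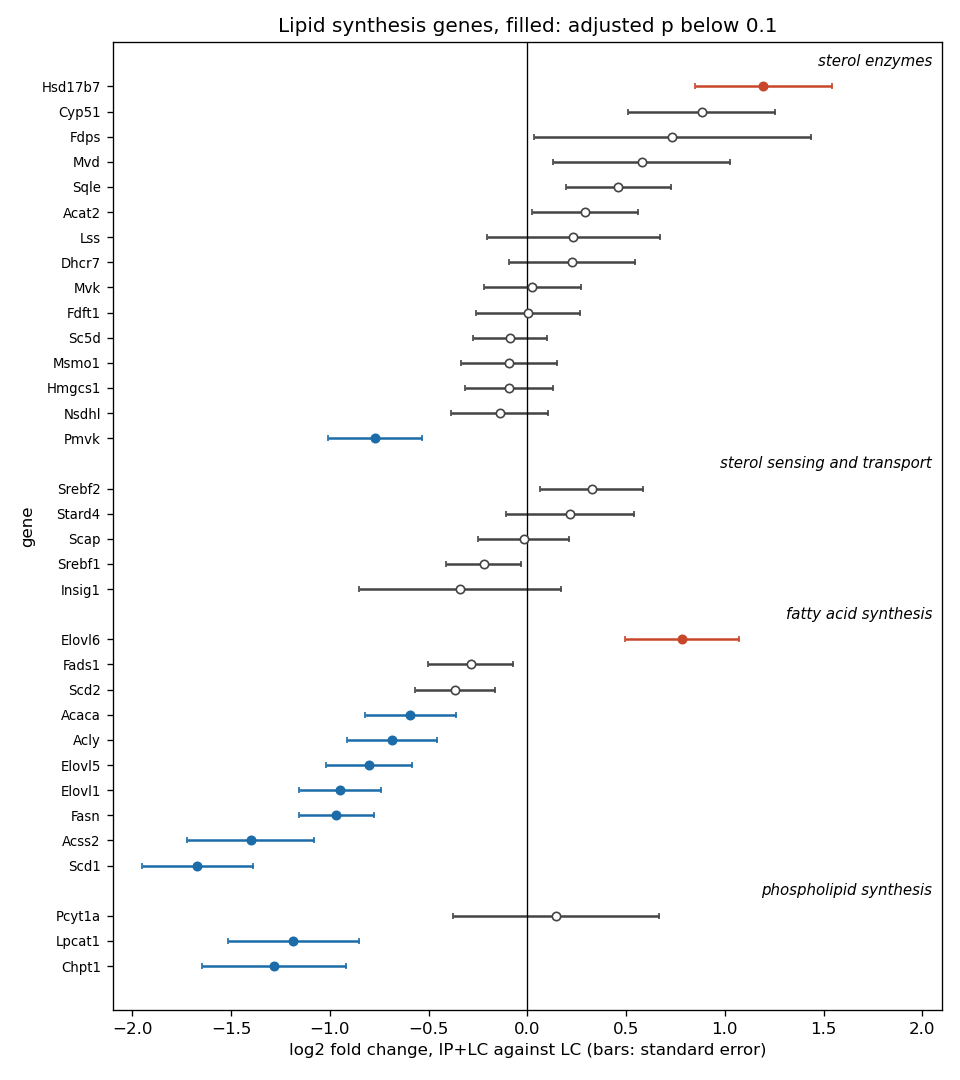
Log2 fold change of the 33 tested members, IP+LC against LC, on the horizontal axis, with bars of 1 standard error, sorted within each role. Filled points passed an adjusted p-value of 0.1, blue for lower and red for higher, and 7 of the 10 fatty acid genes are blue while 13 of the 15 sterol enzymes are open.

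The first step of the fatty acid arm supplies acetyl-CoA to the cytosol. Acss2 (ENSMUSG00000027605, chr2:155517948-155585724), which makes acetyl-CoA from acetate, had 37.9, 54.8 and 34.7 CPM in the LC tumors and 23.9, 12.8 and 12.3 CPM in the IP+LC tumors. All IP+LC tumors lay below all LC tumors, with a 2.64-fold lower level (log2 fold change -1.40, standard error 0.32, adjusted p = 0.0132 from edgeR). For Acly (ENSMUSG00000020917), which makes acetyl-CoA from citrate, the LC tumors had 151, 222 and 137 CPM and the IP+LC tumors 112, 102 and 105 CPM. The groups did not overlap, and the log2 fold change was -0.68 (adjusted p = 0.0545). LC replicate 2 was the highest tumor for both genes. The Acss2 call held without each tumor in turn. For Acly the adjusted p-value rose to 0.217 without LC replicate 2 and to 0.150, 0.198 and 0.166 without IP+LC replicates 1, 2 and 3. Acss2 shares 10.9% of its longest transcript with near-identical transcripts of other genes and Acly shares none.

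Acetyl-CoA is then carboxylated and joined into palmitate. Acaca (ENSMUSG00000020532), the carboxylase that commits carbon to this arm, had 39.6, 48.6 and 59.3 CPM in the LC tumors and 39.2, 28.6 and 32.0 CPM in the IP+LC tumors. The highest IP+LC tumor came within 1 CPM of the lowest LC tumor, and the log2 fold change was -0.59 (adjusted p = 0.0886). This call was the least stable of the arm, since the adjusted p-value was 0.183 without LC replicate 2, 0.241 without LC replicate 3, and 0.128, 0.318 and 0.235 without IP+LC replicates 1, 2 and 3. Another gene shares 64.3% of the Acaca transcript, so its UMIs may be uncertain. Whether the shared part reaches the counted 3′ end was not examined. Fasn (ENSMUSG00000025153, chr11:120805846-120824547), fatty acid synthase itself, had 236, 213 and 215 CPM in the LC tumors and 127, 106 and 107 CPM in the IP+LC tumors. The tumors of each group lay close together, and Fasn was 1.96-fold lower (log2 fold change -0.97, standard error 0.19, adjusted p = 0.00702). That call held under all 14 alternative settings, with adjusted p-values up to 0.0623.

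Scd1 and Scd2 encode stearoyl-CoA desaturases, which place the double bond that turns stearate into oleate. Scd1 (ENSMUSG00000037071, chr19:44394455-44407879) had the largest change of all members, with 1186, 1917 and 1678 CPM in the LC tumors and 506, 365 and 632 CPM in the IP+LC tumors. It was 3.18-fold lower without overlap between the groups (log2 fold change -1.67, standard error 0.28, adjusted p = 0.00374), and it stayed below 0.1 in all 14 alternative settings. Its neighbor Scd2 (ENSMUSG00000025203, chr19:44293674-44306864) had 448, 320 and 378 CPM in the LC tumors and 308, 299 and 281 CPM in the IP+LC tumors. Each IP+LC tumor was below each LC tumor, but the change of -0.36 on the log2 scale (standard error 0.20) did not pass (adjusted p = 0.213). The balance of the pair is given by their ratio. Scd2 had 0.377, 0.167 and 0.225 UMIs per UMI of Scd1 in the LC tumors and 0.609, 0.818 and 0.444 in the IP+LC tumors. On the log2 scale the mean ratio of the LC tumors was -2.05 ± 0.60 and that of the IP+LC tumors -0.73 ± 0.44 (SD over 3 tumors each), without overlap and with a difference of 1.32 and an exact two-sided permutation p of 0.1, the smallest that 3 against 3 tumors allow. Scd2 shares 11.4% of its transcript with 1 other gene, and Scd1 shares none.

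The elongases did not move together. Elovl1 (ENSMUSG00000006390, chr4:118428093-118432953), which extends saturated and monounsaturated chains for sphingolipids, had 570, 429 and 520 CPM in the LC tumors and 281, 226 and 280 CPM in the IP+LC tumors. It was 1.93-fold lower (log2 fold change -0.95, adjusted p = 0.0110), and it passed in all 14 alternative settings, with adjusted p-values up to 0.0796. Elovl5 (ENSMUSG00000032349), which extends polyunsaturated chains, had 114, 166 and 164 CPM against 94.3, 81.1 and 80.6 CPM, without overlap (log2 fold change -0.80, adjusted p = 0.0248). Without LC replicate 2 its adjusted p-value was 0.102, without IP+LC replicate 2 it was 0.127 and without IP+LC replicate 3 it was 0.107. Elovl6 (ENSMUSG00000041220), which extends palmitate to stearate, went the other way, with 18.9, 40.7 and 33.0 CPM in the LC tumors and 60.2, 64.2 and 42.1 CPM in the IP+LC tumors. The lowest IP+LC tumor lay just above the highest LC tumor, and the log2 fold change was 0.78 (adjusted p = 0.0727). This rise did not pass without LC replicate 3 (0.158), IP+LC replicate 1 (0.178) or IP+LC replicate 2 (0.221), nor in DESeq2, and 15.2% of the Elovl6 transcript is shared with other genes. Fads1, a desaturase of polyunsaturated chains, had 61.9 to 94.7 CPM in the LC tumors and 63.0 to 68.3 CPM in the IP+LC tumors (log2 fold change -0.29, standard error 0.22, adjusted p = 0.357).

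Among the genes of phospholipid synthesis, Lpcat1 and Chpt1 were lower. Lpcat1 (ENSMUSG00000021608), the acyltransferase that makes the saturated phosphatidylcholine of surfactant, had 193, 501 and 427 CPM in the LC tumors and 181, 140.1 and 176 CPM in the IP+LC tumors (log2 fold change -1.18, standard error 0.33, adjusted p = 0.0287). Chpt1 (ENSMUSG00000060002), which joins choline to diacylglycerol, had 68.9, 146 and 225 CPM against 58.7, 57.2 and 67.5 CPM (log2 fold change -1.28, standard error 0.37, adjusted p = 0.0301). In both genes LC replicate 1 lay just above the IP+LC tumors and far below the other LC tumors. The adjusted p-value of Lpcat1 was 0.120 without LC replicate 2 and 0.134 without IP+LC replicate 2, and that of Chpt1 was 0.119 and 0.132 without IP+LC replicates 1 and 2. Pcyt1a, the regulated step of phosphatidylcholine synthesis, had 1, 28 and 31 UMIs in the LC tumors and 29, 24 and 38 in the IP+LC tumors. Only LC replicate 1 was low, and the fitted change was 0.15 on the log2 scale (standard error 0.52, adjusted p = 0.864).

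**Figure D2:**
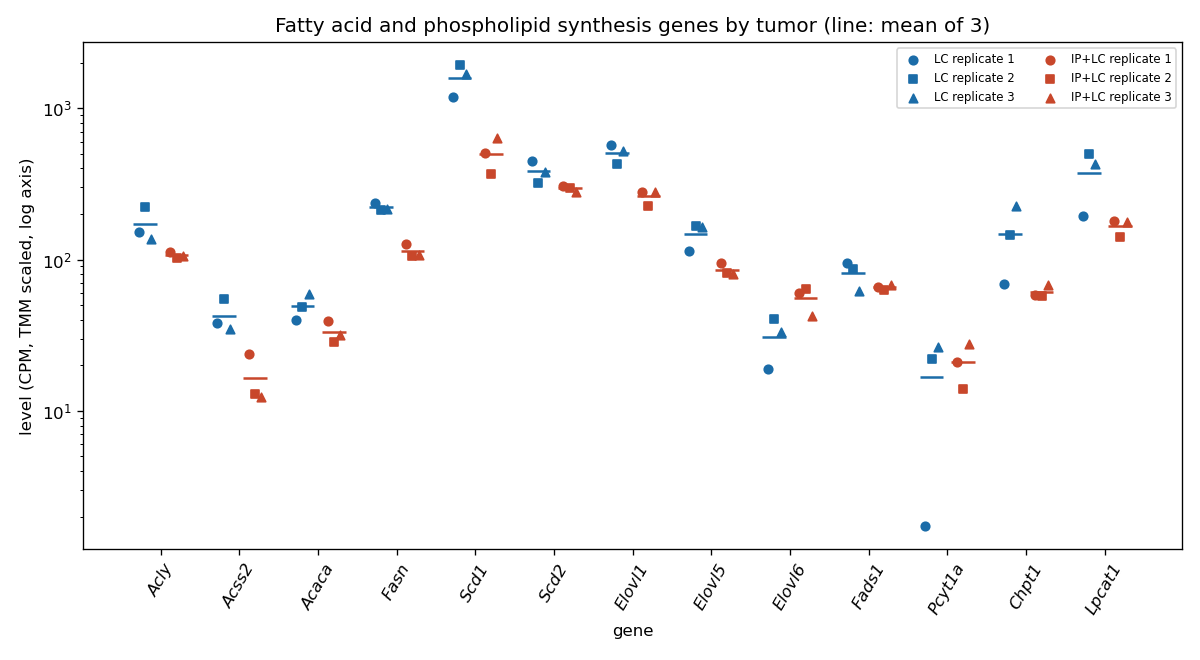
Level in CPM on a log axis for 10 fatty acid and 3 phospholipid genes, with LC tumors in blue, IP+LC tumors in red, a symbol per replicate and a line at the mean of 3. Scd1 falls from 1186 to 1917 CPM in the LC tumors to 365 to 632 CPM in the IP+LC tumors, and Elovl6 is the gene whose red points lie above the blue.

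Of the early sterol enzymes, from acetyl-CoA to farnesyl diphosphate, 1 passed the limit. Hmgcs1 (ENSMUSG00000093930), which makes HMG-CoA, had 93.0, 101 and 100 CPM in the LC tumors and 110.2, 96.9 and 69.0 CPM in the IP+LC tumors, a change of -0.09 on the log2 scale (standard error 0.22, adjusted p = 0.786). The groups overlapped in this gene as in Acat2, Mvk, Mvd and Fdps, whose log2 fold changes were 0.29, 0.03, 0.58 and 0.73 with standard errors of 0.27, 0.25, 0.45 and 0.70. Fdps rested on 2 to 16 UMIs per tumor, and Mvd passed without LC replicate 1, as given below. Pmvk (ENSMUSG00000027952, chr3:89454541-89469013), the second of the mevalonate kinases, was the enzyme that passed, with 56.8, 43.9 and 41.5 CPM in the LC tumors and 31.9, 28.6 and 21.1 CPM in the IP+LC tumors. Its groups did not overlap, and the change was -0.77 on the log2 scale (standard error 0.24, adjusted p = 0.0409). Without IP+LC replicate 2 or 3 the adjusted p-value of Pmvk was 0.134 or 0.156.

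The late sterol enzymes, from squalene to cholesterol, included the only sterol member that rose. Hsd17b7 (ENSMUSG00000026675, chr1:169949535-169969241), the ketoreductase that acts with Nsdhl in removing methyl groups from the ring, had 22.4, 12.5 and 10.2 CPM in the LC tumors and 30.4, 40.9 and 24.0 CPM in the IP+LC tumors. The IP+LC tumors all lay higher, by 2.29-fold (log2 fold change 1.20, standard error 0.35, adjusted p = 0.0318). The adjusted p-value was 0.131 without LC replicate 2, 0.115 without LC replicate 3 and 0.146 without IP+LC replicate 2. Cyp51, which removes a methyl group from lanosterol, had 62.0, 20.4 and 35.6 CPM in the LC tumors and 79.0, 76.5 and 49.4 CPM in the IP+LC tumors. LC replicate 1 overlapped with the IP+LC tumors. The Cyp51 change of 0.88 on the log2 scale (standard error 0.37) missed the limit (adjusted p = 0.109), and it passed in 5 of the 14 alternative settings. Sqle, which adds oxygen to squalene, had 70.6, 54.8 and 51.7 CPM against 94.99, 91.64 and 53.73 CPM (log2 fold change 0.46, adjusted p = 0.232). It passed in 2 of the 14 alternative settings. Fdft1, Lss, Msmo1, Nsdhl, Sc5d and Dhcr7, which make squalene, close the ring and finish it, had log2 fold changes from -0.14 to 0.23, standard errors from 0.19 to 0.44, and overlapping groups.

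Within each group the sterol enzymes followed a shared order of tumors. LC replicate 1 was the highest LC tumor in 14 of the 15 tested sterol enzymes, and IP+LC replicate 3 was the lowest IP+LC tumor in 14 of the 15. Summed over the 16 enzymes, the level was 769.7, 568 and 529 CPM in the LC tumors and 767, 718 and 515 CPM in the IP+LC tumors. By contrast, LC replicate 1 was the highest LC tumor in 4 of the 10 fatty acid genes and the lowest in 4. The sum of the 10 proliferation markers was 813 CPM in LC replicate 1, 162 and 165 CPM in the other LC tumors, and 1433 to 1632 CPM in the IP+LC tumors, and 8 of the 10 rose. Of the most abundant, Top2a rose (adjusted p = 0.00160) and Ube2c did not pass (adjusted p = 0.138). LC replicate 1 was the highest LC tumor in 9 of the 10 markers, for example Ube2c at 214 CPM against 21.9 and 12.7 CPM and Top2a at 102 CPM against 33.7 and 36.4 CPM, and in Cenpf, at 24.1 CPM, it lay between the other LC tumors. That LC replicate 1 was also the shallowest library, and the part of either in the sterol values was not tested. Without LC replicate 1, 5 of the 15 sterol enzymes passed, with 4 higher and 1 lower and a median log2 fold change of 0.37. Mvd (1.21, adjusted p = 0.00402), Cyp51 (1.31, adjusted p = 0.000798) and Sqle (0.60, adjusted p = 0.0388) were then higher along with Hsd17b7. Without LC replicate 3 the median was -0.06 and 1 enzyme was called, as was the case without LC replicate 2. Without IP+LC replicate 2 none was called, with Pmvk (0.134) and Hsd17b7 (0.146) the nearest to the limit. In the fit without LC replicate 1, 17 of all 33 tested members passed, in place of 12. The share of all genes called also changes when a tumor is left out, so these counts cannot be set against 36.4%.

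**Figure D3:**
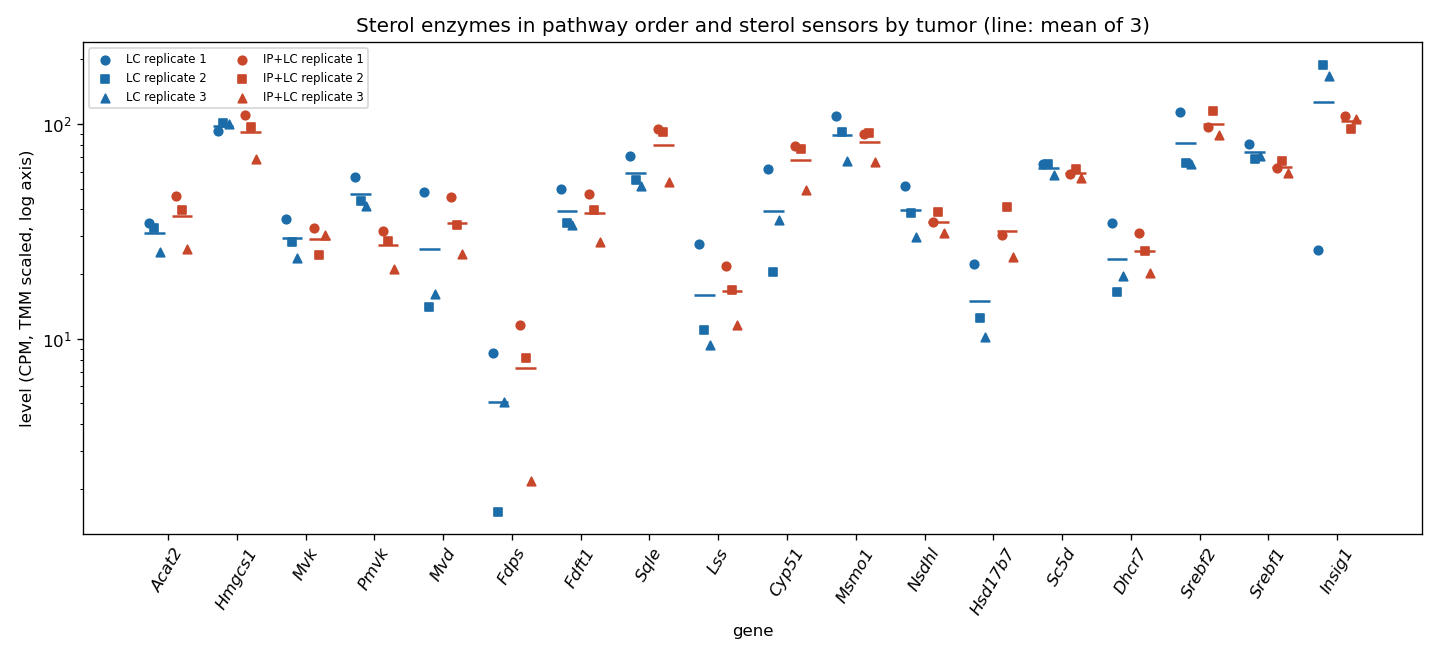
Level in CPM on a log axis for 15 sterol enzymes in the order of the pathway, followed by the sensors Srebf2, Srebf1 and Insig1, with LC tumors in blue, IP+LC tumors in red, a symbol per replicate and a line at the mean of 3. The blue circle of LC replicate 1 sits above the other blue points in 14 of the 15 sterol members, and in Insig1 it sits far below them at 25.8 CPM.

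The regulators of both arms did not pass the limit. Srebf1 (ENSMUSG00000020538), whose product favors fatty acid genes, had 80.9, 68.9 and 71.2 CPM in the LC tumors and 62.4, 67.1 and 58.8 CPM in the IP+LC tumors. The groups did not overlap, but the difference was small (log2 fold change -0.22, standard error 0.19, adjusted p = 0.418). Srebf2 (ENSMUSG00000022463), whose product favors sterol genes, had 114, 65.8 and 65.2 CPM against 96.4, 115 and 88.6 CPM (log2 fold change 0.33, adjusted p = 0.387). Insig1 (ENSMUSG00000045294), which holds SREBPs in the endoplasmic reticulum and is itself an SREBP target, had 25.8, 189 and 167 CPM in the LC tumors and 109, 95.1 and 105 CPM in the IP+LC tumors. The IP+LC tumors were alike, and LC replicate 1 was far below the other LC tumors, with 15 UMIs. On the log2 scale the change was -0.34 (standard error 0.51, adjusted p = 0.654). LC replicate 1 decided the calls of both genes. Without it Insig1 was lower (-0.78, adjusted p = 0.000378) and Srebf2 was higher (0.63, adjusted p = 0.00666), in a fit that called 17 of the 33 tested members in place of 12. Scap, the escort of the SREBPs, and Stard4, a sterol carrier, had log2 fold changes of -0.02 and 0.22 with overlapping groups.

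Other genes of these pathways were read from lists of their own. Ch25h, Cyp27a1 and Nr1h3 were among the genes of sterol uptake, storage and export that passed the limit. Ch25h, which makes an oxysterol in activated macrophages, was 2.98-fold higher (adjusted p = 0.0127). Cyp27a1, which makes another oxysterol, was 3.58-fold lower (adjusted p = 0.00354). Nr1h3, the oxysterol receptor LXR alpha, changed by -0.61 on the log2 scale (adjusted p = 0.0958), which did not pass without LC replicate 2 (0.357) or IP+LC replicates 1, 2 and 3 (0.277, 0.265 and 0.132).

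Further genes of fatty acid synthesis were read next. Of 19 tested, 7 fell and none rose in edgeR, and 0 were higher at an unadjusted p below 0.05. Over all genes 36.4% were called in either direction, so the number called in this list is near that background. All 7 were lower, while 19.6% of all genes were called lower and 16.8% higher. Thrsp, a small regulator of lipogenesis in fat and liver, had 48.2, 130.1 and 113 CPM in the LC tumors and 7.25, 5.25 and 15.97 CPM in the IP+LC tumors, a 10.6-fold lower level (adjusted p = 0.00162). Mid1ip1, its paralog that activates the carboxylase, was 2.59-fold lower (adjusted p = 0.00289). Me1, which supplies NADPH, was 2.06-fold lower (adjusted p = 0.00602), although 60.1% of its transcript is shared with other genes. The citrate carrier Slc25a1 (log2 fold change -0.68, adjusted p = 0.0354), the acyl-CoA synthetase Acsl1 (-0.99, 0.0266) and the dehydratase Hacd3 (-0.81, 0.0293) also fell. Each of these 3 rose above 0.1 without LC replicate 2, IP+LC replicate 1 or IP+LC replicate 2, with adjusted p-values from 0.104 to 0.147, and Slc25a1 did so without IP+LC replicate 3 as well (0.136).

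Among 23 tested genes of other glycerolipids, 3 rose and 4 fell, which is no more than the 36.4% called over all genes. Dgat2, which makes triglyceride for storage, had 34.4, 54.8 and 28.8 CPM in the LC tumors and 4.35, 2.92 and 5.08 CPM in the IP+LC tumors, a 9.66-fold lower level (adjusted p = 0.00113). Lpcat2, the acyltransferase that makes platelet-activating factor in inflammatory cells, was 2.47-fold higher (adjusted p = 0.0223, and 0.106 without LC replicate 2). Its direction was opposite to that of its paralog Lpcat1. Selenoi, an ethanolamine phosphotransferase, changed by 0.85 on the log2 scale (adjusted p = 0.0374), and Cept1, which acts on choline and ethanolamine, by -0.50 (adjusted p = 0.0825). Lpcat4 (log2 fold change 1.18, adjusted p = 0.0746) rested on 1 to 21 UMIs per tumor, and Agpat3 changed by -0.54 (adjusted p = 0.0790). The calls of Cept1, Lpcat4 and Agpat3 held when LC replicate 1 was left out and were lost when any of the other 5 tumors was, with adjusted p-values up to 0.300. Selenoi did not pass without LC replicate 2 (0.120), IP+LC replicate 1 (0.106) or IP+LC replicate 2 (0.123).

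Markers of several host cell types fell along with the fatty acid arm, while the fibroblast and macrophage lists held genes that rose. Over all tested genes 19.6% were called lower and 16.8% higher. All 4 tested adipocyte markers fell, and the sum of the 6 listed was 417 to 657 CPM in the LC tumors and 39.7 to 120 CPM in the IP+LC tumors. Most of that sum was Cfd, the adipsin of fat cells, with 338, 475 and 422 CPM in the LC tumors and 97.2, 33.3 and 88.6 CPM in the IP+LC tumors. Adipoq, which encodes adiponectin, had 22.4, 70.5 and 78.8 CPM in the LC tumors and 5.80, 1.75 and 9.44 CPM in the IP+LC tumors, while Lep had 0 UMIs in at least 1 tumor of each group. Type 2 alveolar cell markers fell in 9 of 10, with sums of 37930 to 47500 CPM and 7207 to 12560 CPM, led by Sftpc and Sftpa1. All 9 alveolar macrophage markers fell, with sums of 1758 to 2220 CPM and 256 to 499 CPM, led by Chil3 and Fabp4. The 5 airway secretory markers, led by Scgb1a1 and Cyp2f2, fell as well, from 49180 to 58080 CPM down to 3330 to 7185 CPM. Of 7 fibroblast markers 5 fell and 2 rose, the latter being Col1a1 and Col1a2, and the sums were 2602 to 4285 CPM and 1234 to 1312 CPM, with Inmt and Dcn the most abundant in the LC tumors. Of 8 macrophage markers 3 rose, C1qa, C1qc and Adgre1, and 1, Lyz2, fell. Their sums of 13140 to 15560 CPM and 7773 to 9519 CPM were mostly Lyz2. Without it the sum was 2144, 763 and 542 CPM in the LC tumors and 2086, 2723 and 2476 CPM in the IP+LC tumors, with LC replicate 1 inside the IP+LC range. Over the same tumors the 11 fatty acid genes summed to 2898 to 3500 CPM (LC) and 1352 to 1643 CPM (IP+LC). Scd1 was the largest part of that sum, with 1186 to 1917 CPM (LC) and 365 to 632 CPM (IP+LC). The part of these cells in the fall of Scd1, Fasn, Lpcat1 and the other members was not tested.

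**Figure D4:**
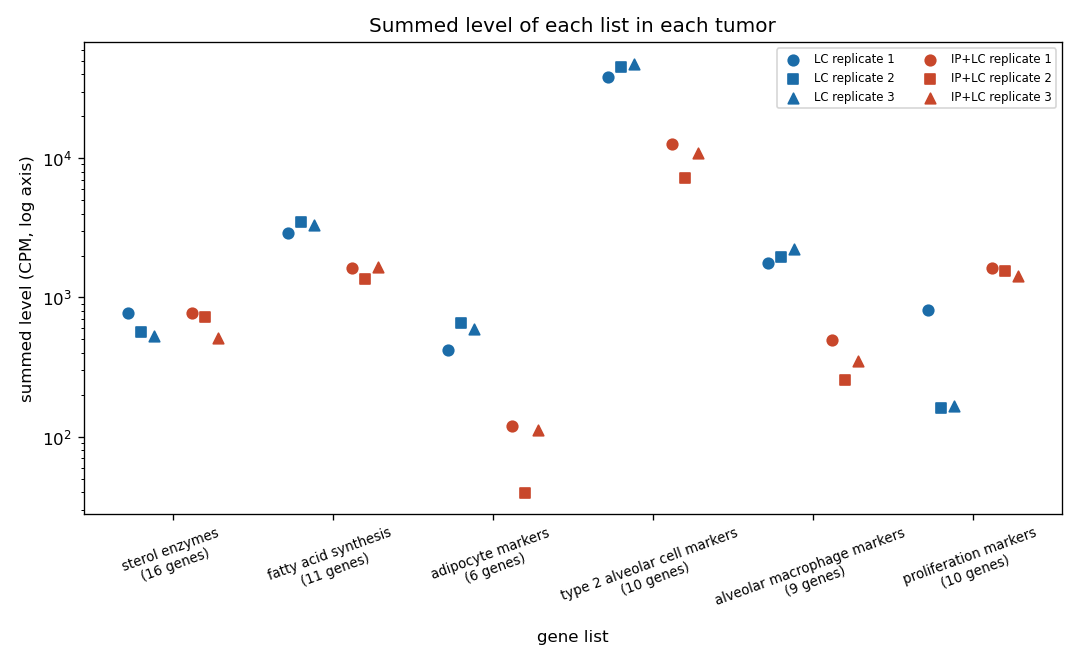
Summed level in CPM on a log axis of 6 gene lists in each tumor, with LC tumors in blue, IP+LC tumors in red and a symbol per replicate. The IP+LC tumors lie lower in the fatty acid genes (2898 to 3500 against 1352 to 1643 CPM, with Scd1 the most abundant). They also lie lower in the adipocyte, type 2 alveolar and alveolar macrophage markers. In the proliferation markers they lie higher (162 to 813 against 1433 to 1632 CPM), and in the sterol enzymes the groups overlap.

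The sample titles name the material as tumor tissue, while the labels give the cell type as lung cancer cells. Of the 4 markers of epithelial carcinoma, Krt8 was present at 114 to 255 CPM in the LC tumors and 205 to 223 CPM in the IP+LC tumors and did not pass (log2 fold change 0.31, adjusted p = 0.463), and Krt18, Epcam and Cdh1 fell. Scgb1a1 and Sftpc, which mark normal airway and alveolar cells, were abundant in all 6 tumors, so the levels above are those of a tissue mixture. Of the 35 members, 12 share at least 10% of their longest transcript with near-identical transcripts of other genes. Among them are Acat2 (65.6%), Acaca (64.3%), Fdft1 (54.7%), Idi1 (33.3%), Chpt1 (19.4%) and Fdps (16.7%). Their UMIs may be uncertain, but the share covers the whole transcript, and its position relative to the counted 3′ end was not examined. Scd1, Fasn, Elovl1, Elovl5, Lpcat1, Pmvk and Hsd17b7 share none.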

How the data were processed

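Each tumor gave 1 barcoded library of mRNA 3′ ends with a UMI on each molecule. The authors extracted UMIs with UMI-tools 1.1.1, trimmed with Trim Galore 0.6.7, mapped to GRCm38 with HISAT2 2.2.1, assigned genes with featureCounts 2.0.1 and deposited raw counts of different UMIs per gene, 1 table per tumor. The annotation release and the strand setting are not given in the sources used here. Members were matched on the gene symbol in the tables.

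Testing used edgeR 4.0.16 under R 4.3.3. The filter on low genes was filterByExpr (minimum count 10, minimum total 15), libraries were scaled by TMM, and the quasi-likelihood test compared IP+LC with LC over all 11240 genes without a block, with Benjamini-Hochberg adjustment and a limit of 0.1. Median, sum and count over a list are descriptions. Alternatives were DESeq2 size factors, upper quartile and library size scaling, other filters, DESeq2 1.42.0, limma 3.58.1 voom, a replicate block, a limit of 0.05 and each tumor left out. The code was tested on simulated data. Coordinates and transcripts are from GENCODE M21 on GRCm38, shared transcripts are blastn 2.17.0 matches of at least 81 bases and 95% identity, and promoters are from RefSeq on GRCm38.p6.

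The members, lists and roles were chosen with earlier results of these data known. Values in each tumor are given for every member past the limit, for the members with the largest and smallest change in each role and for Srebf1, Srebf2, Insig1, Scd1, Scd2 and Fasn. Other pathway genes are named where they passed, up to 6 per list by p-value, apart from results that are not reported here, and of each marker list the 2 most abundant genes are named. Values of Cyp51, Sqle, Mvd, Hmgcs1, Fads1 and further markers were added after seeing the data. Depth limits low genes, since 3 UMIs are 5.06 CPM in LC replicate 1 and 1.84 to 2.24 CPM in the other libraries.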

Additional observations from a re-analysis of the deposited data

How the results depend on the processing

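The called members kept their direction under every one of the 14 alternatives, and Scd1, Fasn, Elovl1 and Acss2 also kept an adjusted p-value below 0.1. Leaving out 1 tumor gave 2265 to 6691 called genes in place of 4088, 0 to 5 called sterol enzymes in place of 2, and 4 to 8 called fatty acid genes in place of 8. At a limit of 0.05, 5 fatty acid genes were called, and fewer of all genes passed as well, so the 36.4% at 0.1 is not the background for that count. The median log2 fold change of the fatty acid genes was -0.59 with library size only and -0.58 without a filter, and that of the sterol enzymes ran from -0.0564 to 0.38 without 1 tumor. Library size only moved the median of all genes by 0.16, and the split of calls was then 2520 higher and 1800 lower in place of 1885 and 2203. With the replicate block, 3410 genes, 2 sterol enzymes and 6 fatty acid genes were called, and Acly and Acaca were lost. Both were also lost with library size only and without a filter. Acaca was lost in DESeq2 too, and Pmvk without a filter. Same-numbered tumors had correlations of deviations of 0.02, -0.11 and 0.10, so the numbers are not shown to pair them.

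Members that were not called changed sign near 0. With library size only, Scap was at 0.14, Nsdhl at 0.0144, Sc5d at 0.0682, Msmo1 at 0.0553 and Hmgcs1 at 0.0626. Without a filter, Scap was at 0.10, Sc5d at 0.0258, Msmo1 at 0.0182 and Hmgcs1 at 0.0214. Fdft1 was at -0.0107 with DESeq2 size factors, -0.0616 with upper quartile scaling, -0.0212 in DESeq2, -0.0025 in voom and -0.0386 with the block, Mvk was at -0.0358 with upper quartile scaling and Insig1 at 0.0181 in voom. Without 1 tumor the ranges were -0.0564 to 0.73 for Lss, -0.17 to 0.14 for Scap, -0.33 to 0.0553 for Nsdhl, -0.15 to 0.19 for Fdft1, -0.78 to 0.0321 for Insig1, -0.22 to 0.50 for Pcyt1a, -0.28 to 0.0685 for Msmo1, -0.22 to 0.10 for Hmgcs1 and -0.12 to 0.17 for Mvk. The cause was not tested. The Scd2 to Scd1 log2 ratio differed by 1.05 to 1.64 without 1 tumor.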
